A study of Homo sapiens with 6 samples.

Results

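The tumor necrosis factor (TNF) ligands and their receptors were described in MDA-MB-453, an established human breast cancer cell line of luminal type, after culture with 25(OH)D, the main circulating form of vitamin D. A gene of the deposited count table was taken as a member where its name was a numbered TNFSF or TNFRSF symbol, or TNF, LTA, LTB, LTBR, FAS, FASLG, CD27, EDAR, EDA2R or RELT. This gave 38 members of the 33451 genes listed, of which 12 were ligands and 26 were receptors. By structure the receptors fell into 7 with a cytoplasmic death domain, 3 decoys and 16 that bind TRAF adaptors. CD40 and NGFR, which the rule also names, were not analysed here, nor were TNFSF9, TNFSF14, TNFSF18 and TNFRSF11B. The 25(OH)D group was MDA-MB-453 cells kept for 5 days in 100 nM 25(OH)D, and the control group was the same line kept for 5 days in the solvent, alcohol, without 25(OH)D. Both groups were grown in the same serum-containing medium, and 3 libraries of stranded mRNA were sequenced from each. The study's methods call the libraries biological replicates and do not say how the cultures were kept apart, so p-values measure the spread between these libraries. All values come from 1 cell line at 1 dose and 1 time.

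TNF ligands are mostly trimeric proteins of the cell surface, which proteases can release, and each binds 1 or a few receptors of the TNF receptor superfamily. Most receptors with a death domain recruit FADD or TRADD and can activate caspase-8 or, through RIPK1, the NF-kB pathway. Receptors without one recruit TRAF proteins and signal mainly to NF-kB and JNK. Decoy receptors bind ligand without passing on a full signal. In epithelial and tumour cells the family is best known for TRAIL, which can start cell death through 2 death receptors, and in bone for RANK and its ligand RANKL, whose gene the hormonal form of vitamin D is known to induce.

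Of the 38 members, 17 had enough counts to be tested, and 21 did not. In 25(OH)D 5 members rose: the TRAIL ligand gene TNFSF10, the RANK gene TNFRSF11A, TNFRSF12A, the TRAIL receptor gene TNFRSF10A and RELT. A pair fell, TNFRSF21 and the other TRAIL death receptor gene, TNFRSF10B, and 10 tested members did not pass. Called here means an adjusted p under 0.05 in the quasi-likelihood test of edgeR, adjusted over all 18183 genes tested by the method of Benjamini and Hochberg. The 7 called members made up 41.2% of those tested, against 33.8% of all genes tested. Higher calls took 5 of the 17, against a background of 17.3%, and lower calls 2 of the 17, against 16.5%. At the limits that the study drew, an absolute log2 fold change over 1 with an unadjusted p under 0.05, TNFRSF11A and TNFSF10 were higher (2 of 17, background 4.02%) and 0 members were lower in edgeR and also with DESeq2 (background 2.63%). The values of the groups did not overlap for 9 of the 17, against 45.7% of all genes tested. The median log2 fold change was 0.32 over the tested members and -0.011 over all genes tested. These shares describe a small list, and no test of the list as a whole was made.

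**Figure D1:**
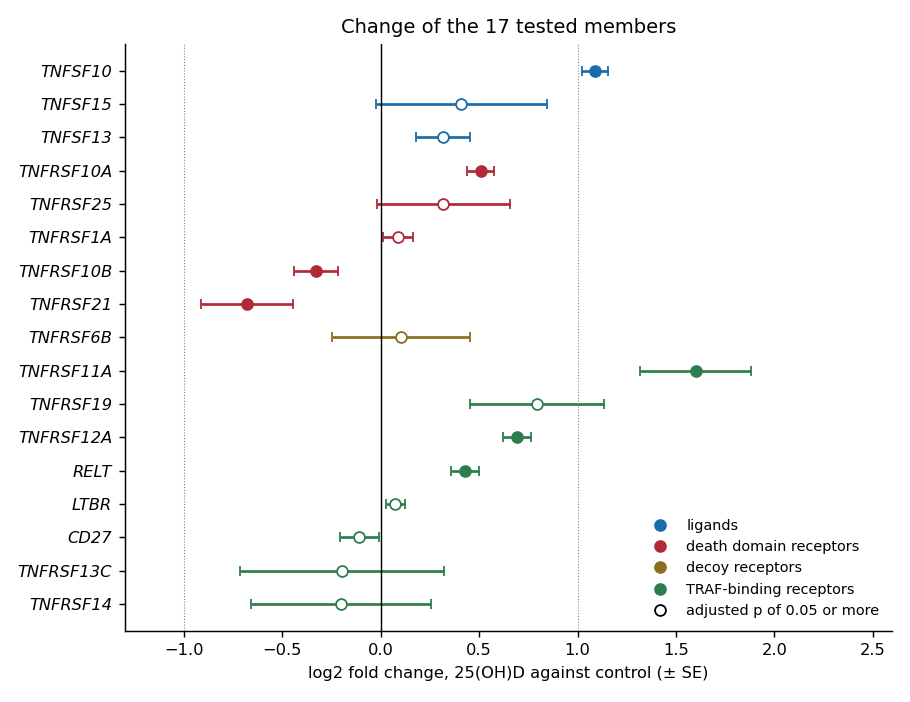
Log2 fold change of 25(OH)D against control, with its standard error, for each of the 17 tested members, ordered by structural class. Filled points passed an adjusted p of 0.05, open points did not, and dotted lines mark a log2 fold change of 1 in either direction. TNFRSF11A, at 1.60, and TNFSF10, at 1.09, lie beyond the upper dotted line.

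Upstream sequence from the RefSeq promoters of GRCh38.p14 is shown for 4 called members, so that the start regions of genes that rose can be read beside that of one that fell. In all, 27 members had such an entry, TNFRSF12A had none, and those of the TRAIL receptor genes are not shown. Each line gives the 250 bases before the RefSeq start, in the direction of the gene, and capitals mark matches to the motifs searched on both strands. The motifs were the vitamin D receptor half-site (AGGTCA or its variants, which were GGGTCA, then AGTTCA, then GGTTCA), the GC box (GGGCGG), the TATA box (TATAAA), the E-box (CACGTG) and the AP-1 site (TGACTCA or TGAGTCA), and none of the marked matches overlapped another.
TNFRSF11A, chr18:62325060-62325309, plus strand: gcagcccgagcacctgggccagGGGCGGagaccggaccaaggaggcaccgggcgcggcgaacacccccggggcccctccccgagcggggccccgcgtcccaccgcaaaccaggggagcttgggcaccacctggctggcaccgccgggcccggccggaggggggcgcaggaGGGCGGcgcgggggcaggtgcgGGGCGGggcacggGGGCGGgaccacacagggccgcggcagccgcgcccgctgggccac
TNFSF10, chr3:172523431-172523680, minus strand: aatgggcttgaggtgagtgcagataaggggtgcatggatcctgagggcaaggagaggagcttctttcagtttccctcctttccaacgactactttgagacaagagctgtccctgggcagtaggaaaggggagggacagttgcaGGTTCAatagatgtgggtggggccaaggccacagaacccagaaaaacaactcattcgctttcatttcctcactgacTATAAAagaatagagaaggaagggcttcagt
RELT, chr11:73376149-73376398, plus strand: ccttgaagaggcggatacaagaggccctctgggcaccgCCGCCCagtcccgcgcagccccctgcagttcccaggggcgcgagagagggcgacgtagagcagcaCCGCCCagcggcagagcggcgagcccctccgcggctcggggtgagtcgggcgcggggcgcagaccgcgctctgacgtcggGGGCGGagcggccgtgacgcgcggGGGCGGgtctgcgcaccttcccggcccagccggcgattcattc
TNFRSF21, chr6:47309906-47310155, minus strand: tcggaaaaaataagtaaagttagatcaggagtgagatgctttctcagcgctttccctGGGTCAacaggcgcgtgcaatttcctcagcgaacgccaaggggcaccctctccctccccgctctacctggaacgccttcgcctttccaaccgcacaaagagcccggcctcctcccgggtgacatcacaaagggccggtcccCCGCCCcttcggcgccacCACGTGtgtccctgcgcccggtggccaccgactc

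The 4 windows differed in composition. The TNFRSF11A window was 82.4% G and C, that of RELT 75.6%, that of TNFRSF21 62.0% and that of TNFSF10 49.6%, while the median over 35116 RefSeq promoters of this length was 58.0%. TNFRSF11A held 4 GC boxes, at 228, 80, 58 and 45 bases before the start, and RELT also held 4. Neither window held a vitamin D receptor half-site. TNFSF10 held 1 half-site 107 bases before the start and a TATA box 31 bases before it. TNFRSF21 held 1 half-site 193 bases before the start, 1 GC box and 1 E-box. No window held an AP-1 site. Such short words are common: 33.8% of the 35116 windows held a half-site, 42.6% a GC box, 10.7% a TATA box, 6.34% an E-box and 4.20% an AP-1 site. The count table places the start of TNFSF10 77 bases, of TNFRSF11A 23 bases and of RELT 135 bases before the RefSeq start used here, and that of TNFRSF21 at the same base.

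Among the ligands, TNFSF10 carried the change. TNFSF10 lies at chr3:172505508-172523507 on the minus strand of GRCh38, encodes TRAIL, and shares no exon base with another gene of the table. Its level is given in CPM, a unit that brings the counts of all libraries to the same size with TMM factors. Control libraries held 22.8, 24.4 and 24.2 CPM, and those with 25(OH)D held 49.6, 54.3 and 47.7 CPM. Every 25(OH)D library stood far above every control library. The means were 23.8 ± 0.881 and 50.5 ± 3.38 CPM (SD, n = 3), a 2.13-fold rise with a log2 fold change of 1.09 (SE 0.0656, adjusted p = 1.13e-08 in edgeR). The size of that change was at the 93.8 percentile of all genes tested.

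The other 2 tested ligands did not pass. TNFSF13 encodes APRIL, a survival factor for B cells and plasma cells, and was at 6.32 ± 0.873 CPM in control and 7.89 ± 1.17 CPM in 25(OH)D, with a log2 fold change of 0.32 (SE 0.139, adjusted p = 0.0987). It passed when 25(OH)D replicate 1 was left out (log2 fold change 0.44, adjusted p = 0.0299). TNFSF13 shared 1263 of its 2276 exon bases (55.5%) with the read-through gene TNFSF12-TNFSF13 on the same strand, so its reads cannot be told apart from those of that gene over this stretch. TNFSF15, which encodes TL1A, stood at 0.342 ± 0.0614 CPM in control and 0.453 ± 0.151 CPM in 25(OH)D, with 10 to 24 counts a library and a log2 fold change of 0.41 (SE 0.433, adjusted p = 0.512).

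The remaining 9 ligands had too few counts for a test, and their counts are given as the libraries held them. TNFSF11, which encodes RANKL, had 0 counts in every control library and counts of 2, 2 and 9 in 25(OH)D. LTA, which encodes lymphotoxin alpha, had 6, 12 and 6 counts in control and 0, 1 and 2 in 25(OH)D. TNF itself had 5 counts in 25(OH)D replicate 1 and 0 elsewhere, and FASLG, the ligand of FAS, had 5 and 2 counts in 25(OH)D replicates 2 and 3 and 0 elsewhere. TNFSF13B, which encodes BAFF, held 3 to 7 counts, LTB 0 to 4 and TNFSF12, which encodes TWEAK, 0 to 4. TNFSF4 and TNFSF8 had at most 3 counts in every library. A count of 3 was worth between 0.0733 and 0.0902 CPM, so the levels of these ligands lay at the limit of what this depth can show. With no filter on low counts, TNFSF11 passed the study's limits as higher and LTA as lower.

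**Figure D2:**
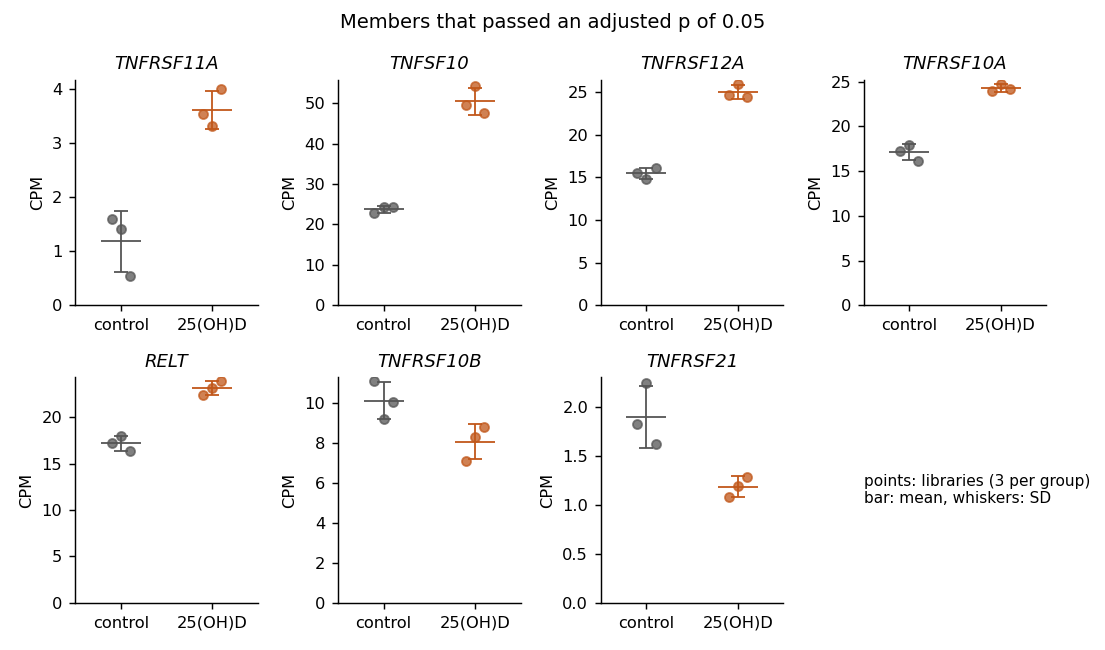
CPM of the 7 called members in every library, 1 panel a gene, each vertical axis starting at 0. Points are libraries, horizontal bars the mean of 3 libraries and whiskers the SD. In each panel the control and 25(OH)D points do not overlap, and for TNFRSF11A the lowest control library, at 0.543 CPM, stands apart from the other two.

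Of 5 death domain receptors tested, 1 rose, 2 fell and 2 did not pass, where 17.3% of all genes tested rose and 16.5% fell. Their median log2 fold change was 0.09. TNFRSF10A and TNFRSF10B encode the 2 death receptors of TRAIL, often called DR4 and DR5, and lie in 1 stretch of 205 kb on chromosome 8 with the decoy receptor genes TNFRSF10C and TNFRSF10D. TNFRSF10A (chr8:23190452-23225126) was at 17.3, 17.9 and 16.1 CPM in control and at 24, 24.8 and 24.2 CPM in 25(OH)D. All 25(OH)D libraries were higher, and they differed little from each other. The means of 17.1 ± 0.886 and 24.3 ± 0.419 CPM gave a 1.42-fold rise (log2 fold change 0.51, SE 0.0705, adjusted p = 5.93e-05). TNFRSF10B (chr8:23020133-23069179) was at 11.1, 9.23 and 10.1 CPM in control and at 7.11, 8.30 and 8.81 CPM in 25(OH)D. The groups did not overlap, but the highest 25(OH)D library lay close to the lowest control library. The means of 10.1 ± 0.935 and 8.07 ± 0.870 CPM gave a level 1.26-fold lower in 25(OH)D (log2 fold change -0.33, SE 0.112, adjusted p = 0.0361). This call rested on few libraries: without 25(OH)D replicate 1 the adjusted p was 0.149, without 25(OH)D replicate 2 it was 0.0699, without control replicate 1 it was 0.148 and without control replicate 3 it was 0.0691. Neither gene shared a 100-base stretch of transcript with another gene. On the opposite strand 2 noncoding genes cover 224 and 266 exon bases of TNFRSF10A, and RHOBTB2 covers 67 of TNFRSF10B.

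TNFRSF10A and TNFRSF10B were also set against each other within each library, a ratio chosen after their values were seen. The RPKM of TNFRSF10A, which scales counts to gene length and library size, was 2.72, 3.39 and 2.80 times that of TNFRSF10B in the control libraries. In the 25(OH)D libraries the ratio was 5.89, 5.22 and 4.80. Its mean was 2.97 ± 0.362 in control and 5.30 ± 0.552 in 25(OH)D (SD, n = 3), with no overlap. Since each gene's own groups already did not overlap in opposite directions, the ratio could not overlap either, and it is given as a description without a test.

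TNFRSF21 encodes DR6, a death receptor studied mostly in neurons and lymphocytes, and lies at chr6:47231532-47309905 on the minus strand. It was at 1.83, 2.25 and 1.63 CPM in control and 1.08, 1.20 and 1.29 CPM in 25(OH)D, from 38 to 85 counts. All 3 control libraries were higher. The means of 1.90 ± 0.316 and 1.19 ± 0.104 CPM gave a level 1.60-fold lower in 25(OH)D (log2 fold change -0.68, SE 0.234, adjusted p = 0.0381). It kept its call without control replicate 3 (adjusted p = 0.0374) and lost it without any other library, with adjusted p = 0.0559 to 0.159. TNFRSF1A, the receptor for TNF on most cells, was at 16.4 ± 0.821 CPM in control and 17.4 ± 0.379 CPM in 25(OH)D (log2 fold change 0.09, SE 0.0752, adjusted p = 0.409). TNFRSF25, which encodes DR3, the receptor of TL1A, was at 0.912 ± 0.238 and 1.14 ± 0.400 CPM (log2 fold change 0.32, SE 0.336, adjusted p = 0.511), and shares 104 exon bases with PLEKHG5 on the same strand.

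The remaining death domain receptors were not tested. FAS had 4, 5 and 2 counts in control and 12, 6 and 16 in 25(OH)D, and all 3 counts in 25(OH)D were above those in control. ACTA2 lies opposite 380 of its 3750 exon bases. FAS passed the study's limits as higher with no filter on low counts. When 25(OH)D replicate 2 was left out, FAS passed the filter and an adjusted p of 0.05. It then passed the filter only through the 12 and 16 counts of the remaining 25(OH)D libraries. That call therefore follows from the group in which FAS was high and is no separate support for a rise. EDAR, the receptor of ectodysplasin in skin and its glands, held 0 to 6 counts. Among the decoys, TNFRSF10C held 0 to 8 counts and TNFRSF10D at most 3 in every library, so TRAIL decoy transcripts were near the limit of counting in both groups. Of the TNFRSF10C stretches of 100 bases, 28.9% were shared with another gene, so even these counts may have been split. TNFRSF6B encodes DcR3, a soluble decoy for the FAS ligand and TL1A, and had 23 to 52 counts a library, with a log2 fold change of 0.10 (SE 0.349, adjusted p = 0.852). All 1124 of its exon bases lie inside the read-through gene RTEL1-TNFRSF6B on the same strand, so its counts are uncertain, and its sign turned to -0.18 without control replicate 1.

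Of the receptors that bind TRAF adaptors, 3 of 8 tested rose and none fell (37.5% called, against 33.8% of all genes tested), with a median log2 fold change of 0.25. The largest change of any tested member was in TNFRSF11A, which encodes RANK and lies at chr18:62325287-62391292 on the plus strand. It was at 1.59, 1.40 and 0.543 CPM in the control libraries, from 66, 53 and 20 counts. In 25(OH)D it was at 3.53, 3.30 and 3.99 CPM, from 124, 127 and 130 counts. The groups stood clear of each other, and control replicate 3 was lower than the other control libraries. The means of 1.18 ± 0.556 and 3.61 ± 0.350 CPM gave a 3.03-fold rise (log2 fold change 1.60, SE 0.283, adjusted p = 4.98e-04), at the 97.2 percentile of the sizes of change over all genes tested. Without control replicate 3 the log2 fold change was 1.27 (adjusted p = 3.08e-04).

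TNFRSF12A encodes FN14, the receptor of TWEAK, and lies at chr16:3018445-3022383 on the plus strand. It was at 15.5, 14.8 and 16.1 CPM in control and at 24.7, 25.9 and 24.4 CPM in 25(OH)D. The spread within each group was small beside the gap between them. The means of 15.5 ± 0.638 and 25.0 ± 0.784 CPM gave a 1.62-fold rise (log2 fold change 0.69, SE 0.0708, adjusted p = 2.92e-06). RELT, a receptor first found in lymphoid tissue, lies at chr11:73376264-73397474 on the plus strand. It was at 17.2, 18.0 and 16.4 CPM in control and 22.4, 23.1 and 23.9 CPM in 25(OH)D. Again no library of one group fell within the range of the other. The means of 17.2 ± 0.774 and 23.2 ± 0.745 CPM gave a 1.35-fold rise (log2 fold change 0.43, SE 0.0711, adjusted p = 2.83e-04). RELT shares 752 of its 6322 exon bases with a gene on the opposite strand, and whether the counting used strand is not given in the sources used here.

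LTBR, the lymphotoxin beta receptor, had the most reads of all members and did not pass, at 76.7 ± 0.992 CPM in control and 80.7 ± 3.84 CPM in 25(OH)D (log2 fold change 0.07, SE 0.0490, adjusted p = 0.280). SCNN1A lies opposite 422 of its 6280 exon bases. CD27, a costimulatory receptor of lymphocytes, was at 9.24 ± 0.227 and 8.57 ± 0.630 CPM (log2 fold change -0.11, SE 0.0995, adjusted p = 0.444). On the opposite strand CD27-AS1 covers 522 of the 1410 exon bases of CD27 (37.0%). Per length the pair were at like levels in control, 6.65 ± 0.134 RPKM for CD27 and 6.40 ± 0.0688 RPKM for CD27-AS1, and without the strand setting of the counting their reads cannot be told apart in the shared bases. TNFRSF19, also named TROY, was at 0.480 ± 0.0532 CPM in control and 0.836 ± 0.0876 CPM in 25(OH)D. Its groups did not overlap, yet at 16 to 35 counts a library it did not pass (log2 fold change 0.80, SE 0.340, adjusted p = 0.0896). TNFRSF14, which encodes HVEM, had 8 to 16 counts a library (log2 fold change -0.20, SE 0.457, adjusted p = 0.777). TNFRSF13C, which encodes the BAFF receptor, had 4 to 16 counts (log2 fold change -0.20, SE 0.517, adjusted p = 0.810), and its sign turned to 0.18 without 25(OH)D replicate 3.

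Another 8 receptors of this class were not tested. TNFRSF8, which encodes CD30, had 6 counts in 25(OH)D replicate 3 and 0 elsewhere, TNFRSF9, which encodes 4-1BB, had 4 counts in 25(OH)D replicate 3 and 0 elsewhere, and EDA2R had 0 to 4. TNFRSF1B, which encodes the other TNF receptor, TNFRSF4, which encodes OX40, TNFRSF18, which encodes GITR, and the B cell receptors TNFRSF13B and TNFRSF17 had at most 3 counts in every library. In all, 8 members had at most 3 counts in every library, 13 more failed the filter with a larger count somewhere, and the highest count among these 21 was 16.

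**Figure D3:**
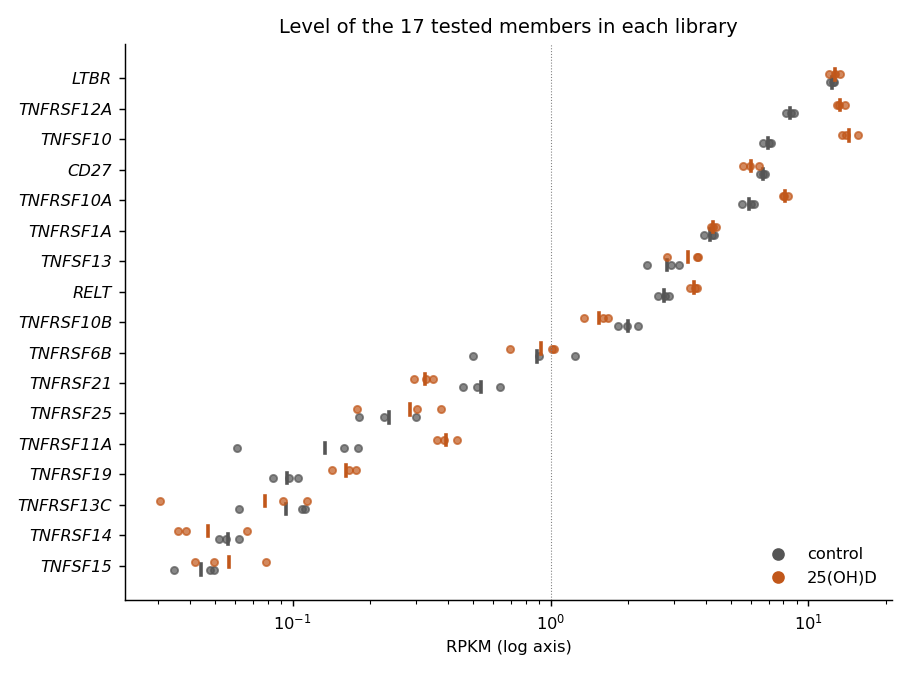
RPKM of the 17 tested members in every library on a log axis, with control in grey and 25(OH)D in orange. Points are libraries and short bars the group means. TNFSF10 rises from rank 3 by mean in control to rank 1 in 25(OH)D, and the lowest 7 members stay under 1 RPKM in every library.

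Levels per length set 9 tested members apart from the rest, since their mean was above 1 RPKM in both groups. In control the order began with LTBR (12.4 ± 0.217 RPKM), TNFRSF12A (8.49 ± 0.318 RPKM) and TNFSF10 (6.95 ± 0.245 RPKM), and the libraries of these 3 genes did not overlap. CD27 came next, and its control libraries overlapped those of TNFSF10. TNFRSF10A (5.88 ± 0.330 RPKM) and TNFRSF1A (4.15 ± 0.194 RPKM) followed, each clear of the next. In 25(OH)D the order began with TNFSF10 (14.3 ± 1.06 RPKM), TNFRSF12A (13.3 ± 0.509 RPKM) and LTBR (12.6 ± 0.603 RPKM), whose libraries overlapped from one neighbour to the next. TNFRSF11A stayed low per length, at 0.133 ± 0.0632 RPKM in control and 0.394 ± 0.0361 RPKM in 25(OH)D. Members together took 0.0199% to 0.0206% of all counts in control and 0.0247% to 0.0258% in 25(OH)D.

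Of the members that lie beside each other in the genome, the pair on chromosome 8 held calls, with TNFRSF10A higher and TNFRSF10B lower, and the other neighbourhoods held none. TNFRSF1A, LTBR and CD27 lie within 123 kb on chromosome 12 and none passed. Of 7 members on the short arm of chromosome 1, spread over 11000 kb, TNFRSF25 and TNFRSF14 were tested and neither passed. TNF, LTA and LTB lie within 10.5 kb on chromosome 6 and were all too low to test.

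Relatives of the family whose names fall outside the rule, 7 in number, were followed in the same fit. RELL1, a homologue of RELT, was at 55.1 ± 1.44 CPM in control and 32.5 ± 1.35 CPM in 25(OH)D and fell (log2 fold change -0.76, SE 0.0567, adjusted p = 1.10e-07), whereas RELT rose. RELL2, the other homologue, did not pass (log2 fold change -0.04, SE 0.0844, adjusted p = 0.759). On the opposite strand C4orf19 covers 418 of the 1947 exon bases of RELL1, and FCHSD1 covers 1003 of the 2596 of RELL2. Without the strand setting of the counting, reads in these shared bases cannot be told apart. EDA, which encodes ectodysplasin, had 24, 23 and 20 counts in control and 12, 4 and 12 in 25(OH)D, and did not pass (log2 fold change -1.10, SE 0.473, adjusted p = 0.0913). The read-through genes TNFSF12-TNFSF13 (log2 fold change 0.32, adjusted p = 0.224) and RTEL1-TNFRSF6B (log2 fold change -0.04, adjusted p = 0.614) did not pass in edgeR either. TNFSF12-TNFSF13 shares 1263 of its 1816 exon bases with TNFSF13 and 553 with TNFSF12. Its value is thus not separate from theirs. CD40LG and CD70 had too few counts for a test.

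The genes that carry the receptors' signals were counted in 4 lists. Of 20 adaptors, 2 rose and 5 fell (35.0%), against 33.8% of all genes tested, with a median log2 fold change of 0.0033. The smallest p among those that fell was that of TRAF5, an adaptor of LTBR, CD27 and related receptors, at 22.2 ± 1.05 CPM in control and 4.77 ± 0.0192 CPM in 25(OH)D (log2 fold change -2.22, SE 0.0875, adjusted p = 1.04e-10). Among those that rose it was TRAF4, at 24.1 ± 2.16 and 39.1 ± 4.60 CPM (log2 fold change 0.70, SE 0.0887, adjusted p = 2.55e-05). TRAF1, TRAF3, TRAIP and EDARADD also fell and RIPK1 rose, while FADD, at 154 ± 12.2 and 156 ± 9.17 CPM, did not pass. EDARADD shares 35.0% of its exon bases with ENO1P1 on the same strand, so its counts are uncertain.

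Of 16 death effectors tested, 1 rose and 3 fell (25.0%, against 33.8% of all genes tested). CFLAR, which encodes FLIP, the inhibitor of caspase-8 at death receptors, rose from 81.3 ± 1.92 to 133 ± 3.49 CPM (log2 fold change 0.71, SE 0.0435, adjusted p = 1.31e-08). Of those that fell BIRC2, which encodes the inhibitor of apoptosis cIAP1, had the smallest p (29.4 ± 0.336 and 24.1 ± 3.06 CPM, log2 fold change -0.29, SE 0.0825, adjusted p = 0.0137). It lost its call without 25(OH)D replicate 2 (adjusted p = 0.0907) or 25(OH)D replicate 3 (adjusted p = 0.0607). CASP8, which encodes caspase-8, fell from 36.6 ± 0.859 to 31.9 ± 1.11 CPM (log2 fold change -0.20, SE 0.0590, adjusted p = 0.0179). MLKL, the effector of necroptosis, also fell (log2 fold change -0.28, SE 0.0935, adjusted p = 0.0304). With 1 library left out, 2 to 4 genes of this list were called. CASP10 had too few counts for a test.

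Of 22 genes tested in the list of ubiquitin regulators, 5 rose and 3 fell (36.4%, against 33.8% of all genes tested). This list also held genes of kinase complexes, among them MAP3K7, TAB1, IKBKB and CHUK. IKBKG, which encodes NEMO, the regulatory subunit of the IKK complex, was at 289 ± 9.89 CPM in control and 921 ± 53.4 CPM in 25(OH)D (log2 fold change 1.67, SE 0.0452, adjusted p = 1.73e-12). Its value is uncertain, since 23.0% of its 100-base stretches also occur in the pseudogene IKBKGP1. RBCK1, a subunit of the linear ubiquitin ligase, fell from 64.7 ± 1.69 to 53.4 ± 1.43 CPM (log2 fold change -0.28, SE 0.0504, adjusted p = 6.57e-04). TAX1BP1, UBE2V1, RNF11 and RNF31 rose and TAB1 and IKBKB fell. UBE2V1 shares 42.9% of its exon bases with another gene on the same strand, and RNF31 shares 34.8%. The counts of UBE2V1 and RNF31 are therefore uncertain. TNFAIP3, which encodes A20, was at 0.293 ± 0.0310 and 0.270 ± 0.0593 CPM and did not pass (adjusted p = 0.888).

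**Figure D4:**
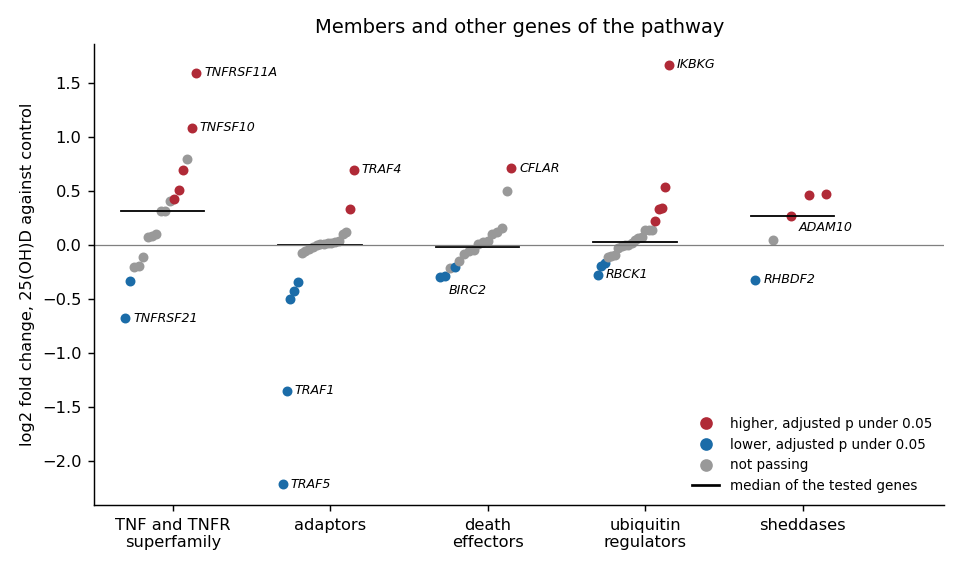
Log2 fold change of 25(OH)D against control for the tested members and for the tested genes of 4 pathway lists, sorted by value within each list. Red and blue points passed an adjusted p of 0.05 as higher and lower, grey points did not pass, and black bars are medians. IKBKG, at 1.67, and TRAF5, at -2.22, are the extremes among the genes shown.

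**Figure D5:**
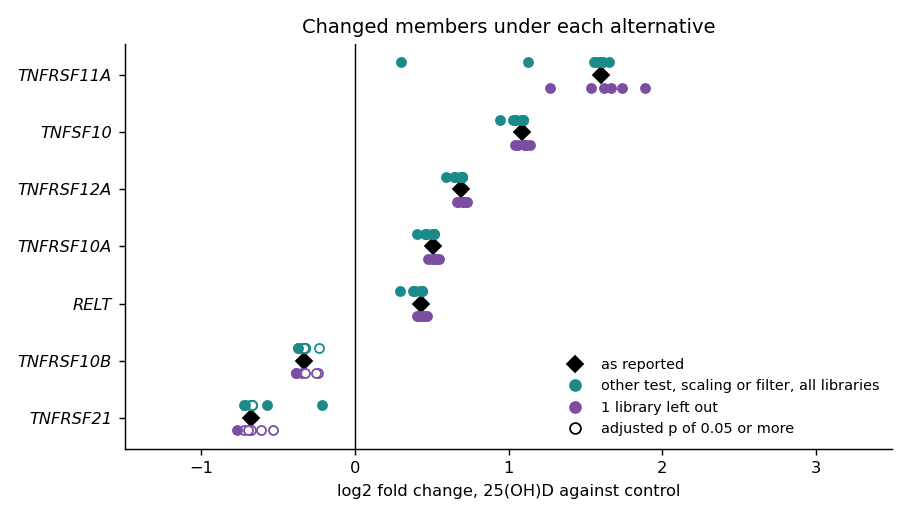
Log2 fold change of the 7 called members as reported (diamonds), under another test, scaling, filter or counting rule (upper row of points) and with 1 library left out (lower row). Open points had an adjusted p of 0.05 or more, and they occur only for TNFRSF10B and TNFRSF21. The leftmost point of TNFRSF11A, at 0.30, is the fit to log2(RPKM + 1), a scale on which a gene far below 1 RPKM moves little.

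The libraries held 33268860 to 40928176 counts, and no library of a group was a copy of another. The markers of the line were present: the 8 luminal and apocrine genes summed to 3619 to 3705 CPM in control and 3936 to 3995 CPM in 25(OH)D. Most of this was keratin. Of the 8 genes 5 rose and 2 fell (87.5% called, against 33.8% of all genes tested). Those that fell were GATA3 (log2 fold change -0.80, adjusted p = 8.56e-10) and FOXA1 (log2 fold change -0.46, adjusted p = 1.51e-05). Leukocyte markers, which matter here since many members are lymphocyte genes, summed to 4.80 to 6.24 CPM in control and 13.7 to 19.9 CPM in 25(OH)D. Nearly all of this was CD68, a lysosomal protein of macrophages that other cells also make. CD68 shares 1789 of its 2189 exon bases (81.7%) with RP11-186B7.4 on the same strand, so its counts are uncertain. The other 9 leukocyte genes summed to 0.543 to 0.793 CPM in control and 0.644 to 0.754 CPM in 25(OH)D, and 4 of the 10 had at most 3 counts in every library. Stromal and endothelial markers other than COL1A1 summed to 0.582 to 1.09 and 0.171 to 0.737 CPM. COL1A1, a collagen gene, was at 37.5 ± 1.39 CPM in control and 33.1 ± 1.19 CPM in 25(OH)D and fell (log2 fold change -0.18, adjusted p = 0.0320 in edgeR), and with it the list summed to 37.0 to 39.3 and 32.1 to 35.1 CPM. Mitochondrial genes took 7.85% to 7.99% of the counts in control and 8.89% to 9.24% in 25(OH)D, and their part in the results was not tested. In these bulk samples fewer cells with a transcript and less of it per cell cannot be told apart.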

How the data were processed

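RNA of 6 libraries of MDA-MB-453 cells was sequenced in paired reads. The authors deposited a table of raw counts per gene, without normalization, and a table of RPKM values, which equal the counts divided by gene length and library total (largest relative difference 2.23e-13). Per the submitters' processing notes reads were trimmed with Trimmomatic 0.36 and counted with featureCounts of Subread 1.5.1 on GRCh38, with edgeR 3.12.1 also named. The aligner, the annotation release, the strand setting and whether read pairs were counted as 1 are not given in the sources used here. Of the counts from 1 to 10, 68.5% were even, and 14976 values were 2 against 6422 that were 1, so counts divided by 2 were fitted as an alternative chosen after seeing the data. The floor of 3 counts covers counting error only.

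The members and lists were chosen with earlier results of these data known. Counts were fitted in R 4.3.3 with edgeR 4.0.16 (TMM, low-count filter with a minimum count of 10, quasi-likelihood test without covariates, biological coefficient of variation 0.0788). The fit was tested on simulated data. DESeq2 1.42.0, limma 3.58.1 on log2(RPKM + 1) and log2(RPKM + 0.1), other scalings, no filter, the replicate number as a block, only members without shared same-strand exon bases and each library left out served as alternatives. Shared exons came from the table and shared transcript stretches from GENCODE 29. Every called member was given in each library, other tested members by level and test, and untested ones by counts. Of each pathway list the gene with the smallest p in each direction was named, and further genes were named after their values were seen. Protein sequences were not used here. Some genes of the lists are not reported here.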

Additional observations from a re-analysis of the deposited data

How the results depend on the processing

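The 5 members that rose were called under every alternative run, and 6 were called without 25(OH)D replicate 1 or 2 (range with 1 library left out, 5 to 6). The added member was TNFSF13 without replicate 1 and FAS without replicate 2. FAS entered that fit only through its counts in 25(OH)D, and it is not among the 30 genes followed through the alternatives. The lower calls depended on the fit: 1 remained with DESeq2 (TNFRSF10B) and 1 with either limma fit (TNFRSF21). With the replicate block, 0 remained (TNFRSF21, adjusted p = 0.0606, and TNFRSF10B, 0.0561), and with 1 library left out 0 to 1. Deviations of same-numbered libraries from their group means correlated at -0.072, -0.012 and -0.046. These values cannot decide whether the cultures were paired, since each group of 3 was centred on its own mean. The sources used here do not say whether replicate numbers pair the libraries. The block changed no other call among the 30 genes followed through the alternatives. At the study's limits 0 members were higher on log2(RPKM + 1), and 4 higher and 1 lower with no low-count filter, the cause being genes the filter otherwise removes. With 1 library left out these counts were 2 to 3 and 0. The counts of called death effectors were 2 to 4, and of called ubiquitin regulators 5 to 7, with 1 library left out. TNFRSF6B and TNFRSF13C, neither of them called, turned sign when 1 library was left out, with log2 fold changes between -0.18 and 0.44 and between -0.54 and 0.18. Over these 30 genes and 447 pairs of gene and alternative, 424 kept their direction and side of the threshold, 20 lost the call, 1 gained it and 2 turned sign. Why these calls moved was not tested. Depth limits what can be said of the 21 untested members. The balance of calls over all genes tested also moved with the processing. Higher ones were 51.1% of those calls in the fit as reported. They were 42.3% with library size alone, 42.8% with upper-quartile factors, and 43.0% and 43.2% in the limma fits.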

Other observations

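Release of TNF ligands and receptors from the cell surface depends on proteases and their partners, and 5 of 6 such genes could be tested. ADAM10, a protease that cuts many surface proteins, rose from 123 ± 1.57 to 148 ± 3.98 CPM (log2 fold change 0.27, SE 0.0408, adjusted p = 1.38e-04 in edgeR). RHBDF1, a partner needed by the protease ADAM17, rose from 20.6 ± 2.91 to 28.4 ± 3.44 CPM (log2 fold change 0.47, SE 0.106, adjusted p = 0.00335), and FRMD8, which stabilises that complex, rose from 7.29 ± 0.485 to 10.1 ± 0.581 CPM (log2 fold change 0.47, SE 0.102, adjusted p = 0.00241). RHBDF2 fell (14.4 ± 0.796 and 11.5 ± 1.46 CPM, log2 fold change -0.32, SE 0.101, adjusted p = 0.0242), and lost its call without 25(OH)D replicate 1 (adjusted p = 0.113) or control replicate 2 (adjusted p = 0.110) and in limma on log2(RPKM + 0.1) and log2(RPKM + 1) (adjusted p = 0.0632 and 0.0590). ADAM17 itself, the main protease for TNF, did not pass (43.1 ± 1.24 and 44.6 ± 1.43 CPM, log2 fold change 0.05, SE 0.0553, adjusted p = 0.551). Of the 5 tested genes 3 rose and 1 fell, where 33.8% of all genes tested were called. Whether more ligand or receptor was released was not measured here.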
